A study of Mus musculus with 46 samples.

Results

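Liver RNA was compared between female mice injected with PTP-r and female mice injected with vehicle, which took 12 of the 46 libraries of the study: those that the labels call female liver, 6 with PTP-r (libraries 1, 4, 5, 8, 9 and 11) and 6 with vehicle (libraries 2, 3, 6, 7, 10 and 12). All of these mice were wild-type C57Bl/6 females that began a high-fat diet at 7 weeks of age and stayed on it for 21 weeks under a reversed cycle of 12 hours of light and 12 hours of dark. From week 16, for 5 weeks, they received a daily subcutaneous injection, either of phosphate-buffered saline (vehicle) or of PTP-r at 1 mg/kg. The labels use PTP-r as a code name and do not spell it out, and the series title speaks of a prohibitin-binding peptide of mixed chirality in obesity. There was no group on a normal diet among these libraries, so obesity and diet are shared by treated and control mice. The labels do not state that each library came from a separate mouse, so the p-values below measure the spread between libraries. The study also holds 11 male liver libraries (6 PTP-r, 5 vehicle) and libraries of white adipose tissue; the male livers share the variance estimate and serve as the closest comparison, and the adipose libraries are not analysed here.

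In bulk liver RNA most transcripts come from hepatocytes, and smaller shares come from sinusoidal endothelial cells, Kupffer cells, other leukocytes, stellate cells and bile duct cells. Sinusoidal endothelial cells line the liver's capillaries, filter the blood through pores and scavenge macromolecules; they carry receptors for vascular endothelial growth factors and make clotting factor VIII. During inflammation, cytokines act on hepatocytes through the transcription factors NF-kB, STAT and C/EBP and raise serum amyloid A and other acute-phase proteins, while chemokines and adhesion molecules draw neutrophils and monocytes into the sinusoids. Prohibitins form ring-shaped scaffolds inside mitochondria, and a share of them sits on the surface of some endothelial cells, for example in fat. In bulk RNA, fewer cells of a type and less RNA per cell cannot be told apart, and this holds for every cell type gene below.

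The PTP-r libraries held 22527037 to 57518893 reads counted on genes and the vehicle libraries 28737513 to 41711534. Levels are given as CPM, a gene's reads scaled to a common library size by the trimmed mean of M values. CPM are not corrected for gene length. Of 6 library measures (depth, reads on no gene, multimapping reads, mitochondrial reads, share of the 20 highest genes and number of genes with 10 reads), the share of the 20 highest genes was 26.5% ± 0.606 with PTP-r and 25.6% ± 0.476 with vehicle (SD, n = 6 each; exact 2-sided permutation test p = 0.0173, adjusted over the 6 measures 0.104), and the others had exact permutation p-values of at least 0.136. Traces of other tissues were found in several libraries. Summed over 15 skeletal muscle markers, PTP-r library 11 had 394 CPM, vehicle library 12 had 572 CPM and the other 10 libraries had between 0.741 and 6.85 CPM. The 15 exocrine pancreas markers summed to 493 CPM in PTP-r library 1 and to between 10.9 and 27.5 CPM elsewhere. Fat cell genes were not confined to these libraries: Plin1 was at 3.49 CPM in PTP-r library 1, 1.13 CPM in PTP-r library 11, 2.12 CPM in vehicle library 10 and 1.43 CPM in vehicle library 12, and at 0 to 0.370 CPM in the other 8. Summed, the 12 fat cell markers did not single out the libraries high in Plin1. The sums ran from 1186 to 2291 CPM under PTP-r and from 1540 to 2228 CPM under vehicle. Most of this was Car3, at 1144 to 2247 and 1507 to 2188 CPM. By Adipoq, vehicle library 2 (0.692 CPM), which was kept, stood slightly above PTP-r library 11 (0.676 CPM). Because of the traces, results are also given without the 3 libraries with muscle or pancreas RNA. The counts and the 26 genes are also given without these 3 and vehicle library 10. Both choices were made after seeing the data. On the 500 most variable genes the treatment groups did not separate along the leading axes of variation, which held 25.2% and 14.9% of the variance; vehicle library 12 lay farthest out on the leading axis, where the fat cell genes Cfd, Plin1 and Adipoq were among the 5 genes with the largest loadings.

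Few genes passed between PTP-r and vehicle. Among those that rose were 2 acute-phase genes, 2 chemokines and 2 genes of lipid-associated macrophages, and 9 of those that fell were on the endothelial lists. Of 15892 genes tested, 26 passed, which is 0.164%: 12 were higher with PTP-r (0.0755%) and 14 were lower (0.0881%). A gene passed when its p-value from the quasi-likelihood F test of edgeR, a count model, stayed under 0.05 after Benjamini-Hochberg adjustment over all genes tested; that value is called the adjusted p below. Fold changes are given as log2 of PTP-r over vehicle, so that 1 stands for a doubling. Their standard error is approximate: it is the size of the log2 value divided by the square root of the F statistic. At an unadjusted p under 0.05 stood 1378 genes (8.67%), 731 on the higher side (4.6%) and 647 on the lower side (4.07%). The 12 higher genes were Saa3, Orm2, Cxcl2, Ccl2, Icam1, Bst2, S100a9, Chil3, Mmp12, Gpnmb, Ckap2l and Gfra1. The 14 lower genes were Dnase1l3, Kdr, Flt4, Ntn4, Jam2, Ptprb, Mmrn2, Aqp1, Tspan7, Cd300lg, Plxnd1, F8, Col13a1 and the uncharacterised locus Gm44220. In all 26, each of the 6 PTP-r libraries lay beyond the vehicle mean on the side of the change. The groups did not overlap at all in 8 of the 12 higher genes, where 0.422% of all genes tested did so, and in 10 of the 14 lower genes, where 0.302% did so; being called and not overlapping use the same values. The higher genes changed more and varied more than the lower ones: the median size of the log2 fold change was 1.58 among the higher and 0.71 among the lower, and the median SD was 41.2% of the mean among PTP-r libraries for the higher genes and 17.8% for the lower.

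**Figure D1:**
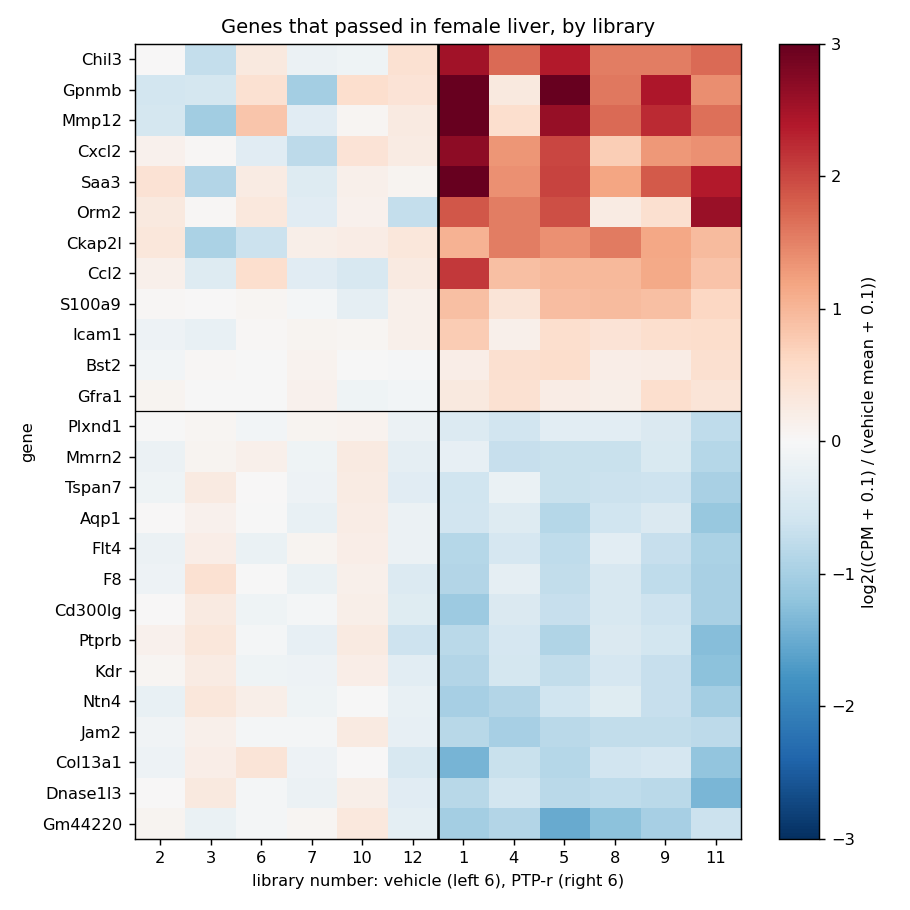
Level of the 26 genes that passed, in rows, in the 12 female liver libraries, in columns, as log2 of (CPM + 0.1) over (vehicle mean + 0.1), red above and blue below the vehicle mean. The 12 higher genes are red in the PTP-r columns, most strongly in library 1 (median 1.99) and least in library 4 (median 0.71), and the 14 lower genes are blue in all 6 PTP-r columns.

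Among acute-phase proteins, 2 passed. Saa3, an inducible serum amyloid that macrophages, fat cells and liver make during inflammation (ENSMUSG00000040026, chromosome 7, 46711998 to 46715700, build GRCm38), had the smallest p-value of all genes. It was at 29.3, 9.29, 14.8, 8.19, 12.9 and 18.7 CPM in PTP-r libraries 1, 4, 5, 8, 9 and 11 and at 4.78, 1.88, 4.17, 2.69, 3.92 and 3.74 CPM in vehicle libraries 2, 3, 6, 7, 10 and 12, so that the lowest PTP-r library stood above the highest vehicle library. The fold change was 4.41 (log2 2.14 ± 0.27, adjusted p = 0.000746). Orm2 is an orosomucoid that hepatocytes secrete in the acute phase (ENSMUSG00000061540, chromosome 4, 63362449 to 63365878). It was at 47.3, 37.1, 49.5, 15.3, 17.9 and 77.5 CPM with PTP-r and 15.7, 13.2, 16.1, 10.2, 14.1 and 7.84 CPM with vehicle, in the same order of libraries as for Saa3, which is kept below (log2 1.67 ± 0.34, adjusted p = 0.0425). Libraries 1, 4, 5 and 11 were far above every vehicle library, while 8 and 9 lay at the upper edge of the vehicle range. Without the 3 libraries that carried other tissue the Orm2 value was 1.11 (adjusted p = 0.353), and leaving out any of 10 single libraries ended its call. Saa3 passed in every one of these fits, at 1.70 (adjusted p = 0.00467) without the 3 libraries.

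Several other acute-phase genes had positive log2 values without passing. Lcn2 binds bacterial iron carriers. It was at 58.4, 31.6, 58.4, 19.8, 22.1 and 62.02 CPM with PTP-r and 8.94, 8.46, 19.8, 5.64, 11.5 and 15.4 CPM with vehicle; the groups met at 19.8 CPM without crossing (log2 1.86 ± 0.39, adjusted p = 0.0516). Saa1 (log2 1.87 ± 0.51, adjusted p = 0.146) and Saa2 (log2 1.75 ± 0.52, adjusted p = 0.215), the serum amyloids carried on lipoproteins, ranged from 47.1 to 276 and 18.2 to 101 CPM with PTP-r and from 14.5 to 70.3 and 6.52 to 28.2 CPM with vehicle. These neighbouring genes are near-identical, and reads that fit both were not counted, so each is measured from fewer reads. Of the 30 acute-phase genes listed, all 30 were tested, 2 rose and none fell; 17 had an unadjusted p under 0.05 on the higher side (56.7%, against 4.6% of all genes) and none on the lower. Their median log2 fold change was 0.28 against -0.0026 for all genes tested, and 0.20 without the 3 libraries, where 1 of them passed and 13 had an unadjusted p under 0.05.

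The promoters of 5 of the higher genes are shown because they carry sequences that NF-kB, C/EBP or interferon-activated factors can bind. They run from 250 bases before to 50 bases after the start in RefSeq (GRCm38.p6), 5′ to 3′ on the gene's strand, with the matches in capitals. Saa3 (chr7:46715627-46715926, minus strand) holds a C/EBP match and an interferon-response match, Orm2 (chr4:63362199-63362498, plus strand) an AP-1 and a C/EBP match, Cxcl2 (chr5:90903649-90903948, plus strand) a pair of NF-kB matches, Icam1 (chr9:21015690-21015989, plus strand) an NF-kB match of the second form, and Bst2 (chr8:71537423-71537722, minus strand) a pair of overlapping interferon-response matches.
Saa3: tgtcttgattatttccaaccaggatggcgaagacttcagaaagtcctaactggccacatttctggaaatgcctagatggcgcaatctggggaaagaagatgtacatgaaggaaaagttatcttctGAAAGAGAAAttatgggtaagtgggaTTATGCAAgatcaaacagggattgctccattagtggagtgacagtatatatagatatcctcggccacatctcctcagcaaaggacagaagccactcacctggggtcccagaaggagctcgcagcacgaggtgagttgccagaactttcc
Orm2: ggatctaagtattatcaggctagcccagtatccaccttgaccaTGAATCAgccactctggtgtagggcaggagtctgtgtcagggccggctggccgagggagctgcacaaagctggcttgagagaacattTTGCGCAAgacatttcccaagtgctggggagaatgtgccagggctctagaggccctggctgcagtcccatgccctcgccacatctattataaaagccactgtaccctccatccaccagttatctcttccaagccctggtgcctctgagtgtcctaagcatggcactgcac
Cxcl2: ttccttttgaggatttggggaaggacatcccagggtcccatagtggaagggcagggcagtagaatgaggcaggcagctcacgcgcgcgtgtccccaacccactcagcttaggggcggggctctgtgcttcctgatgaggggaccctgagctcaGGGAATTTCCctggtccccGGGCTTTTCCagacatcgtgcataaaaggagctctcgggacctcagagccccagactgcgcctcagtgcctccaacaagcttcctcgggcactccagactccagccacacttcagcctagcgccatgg
Icam1: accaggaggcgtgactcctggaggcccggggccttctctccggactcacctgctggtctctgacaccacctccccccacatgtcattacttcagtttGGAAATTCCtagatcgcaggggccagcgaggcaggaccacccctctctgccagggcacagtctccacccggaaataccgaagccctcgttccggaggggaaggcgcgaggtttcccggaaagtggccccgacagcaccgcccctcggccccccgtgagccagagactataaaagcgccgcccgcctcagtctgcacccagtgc
Bst2: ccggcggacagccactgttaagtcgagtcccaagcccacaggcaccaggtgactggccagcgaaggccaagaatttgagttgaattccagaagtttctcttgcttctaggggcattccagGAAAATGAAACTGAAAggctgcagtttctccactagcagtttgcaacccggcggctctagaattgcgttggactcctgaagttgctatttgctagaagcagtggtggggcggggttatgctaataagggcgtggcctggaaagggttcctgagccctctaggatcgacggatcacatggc

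The motifs searched on both strands were an NF-kB consensus and its second form GGAAATTCC, the C/EBP letters TTGCNNAA, the interferon-stimulated response element and the AP-1 letters TGANTCA. RefSeq promoters were found for 11 of the 12 higher and 8 of the 14 lower genes. The NF-kB matches of Cxcl2 begin 97 and 78 bases before the start, and the former overlaps a match of the second form. The former consensus occurs in 1.63% of 32851 promoters and GGAAATTCC in 0.317%. That second form stands 153 bases before the start of Icam1. The C/EBP letters occur in 10.8% of promoters, and in those of Saa3 (99 bases before the start), Orm2 (120 bases), Mmp12, S100a9 and, among the lower genes, Col13a1. The interferon-response motif occurs in 3.44% of promoters, and in those of Bst2 (130 and 124 bases before the start), Saa3 (125 bases) and Gfra1. AP-1 letters occur in 7.81% of promoters and in those of Orm2 (207 bases), Mmp12 and Gpnmb. A match describes the letters and was not tested as a binding site.

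Signals and adhesion molecules for leukocytes followed. Cxcl2 is the chemokine that attracts neutrophils (ENSMUSG00000058427, chromosome 5, 90903871 to 90905938). It was low throughout: 1.26, 0.433, 0.756, 0.253, 0.427 and 0.451 CPM with PTP-r and 0.132, 0.117, 0.0673, 0.0232, 0.181 and 0.153 CPM with vehicle. Its groups did not overlap, and the fold change of 5.02 (log2 2.33 ± 0.39, adjusted p = 0.0112) rested on 8 to 30 reads per PTP-r library and 1 to 7 reads per vehicle library. The expression filter asks for a minimum count of 10, so Cxcl2 entered the test only through PTP-r libraries, where it was high. Without the 3 libraries the log2 value was 2.11 (adjusted p = 0.0567). Ccl2 attracts monocytes (ENSMUSG00000035385, chromosome 11, 82035571 to 82037453). It was at 3.49, 1.46, 1.51, 1.52, 1.71 and 1.39 CPM with PTP-r and 0.824, 0.529, 1.08, 0.557, 0.490 and 0.891 CPM with vehicle (log2 1.34 ± 0.27, adjusted p = 0.04); library 1 stood well above the other PTP-r libraries. Ccl2 lost its call when any of 8 single libraries was left out (PTP-r 1, 5, 9 or 11, vehicle 2, 3, 7 or 10), and without the 3 libraries it was 1.18 (adjusted p = 0.118). Icam1 is the ligand on endothelium and other cells that leukocyte integrins grip (ENSMUSG00000037405, chromosome 9, 21015985 to 21028817). It was at 25.9, 16.8, 21.6, 20.3, 21.6 and 21.8 CPM with PTP-r and 13.6, 13.01, 15.6, 16.1, 15.8 and 17 CPM with vehicle, a 1.40-fold rise (log2 0.49 ± 0.092, adjusted p = 0.0223) in which only PTP-r library 4 lay within the vehicle range. It lost its call without the 3 libraries (0.44, adjusted p = 0.106).

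Of the 27 chemokine genes tested, 2 rose and none fell. An unadjusted p under 0.05 was found in 8 on the higher side (29.6%, against 4.6% of all genes) and 1 on the lower. Their median was 0.34, or 0.04 when only genes with 1 CPM in 5 libraries were kept. Cxcl9 is an interferon-induced chemokine for T cells chosen after its values were seen. It ranged from 18.2 to 35.6 CPM with PTP-r and from 8.002 to 16.6 CPM with vehicle, with no overlap (log2 1.06 ± 0.27, adjusted p = 0.105). Among 26 cytokines and NF-kB targets, 1 rose (Icam1) and 5 had an unadjusted p under 0.05, all higher (19.2%, against 4.6% of all genes). Their median was 0.18. Sele is the endothelial selectin that cytokines induce, likewise chosen after its values were seen. It ranged from 0.158 to 0.356 CPM with PTP-r and from 0.0232 to 0.155 CPM with vehicle, without overlap, although vehicle library 10 came close to the lowest PTP-r library (log2 1.90 ± 0.40, adjusted p = 0.0516).

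Of the interferon-induced genes, 1 passed. Bst2 tethers enveloped viruses to the cell surface and is induced by interferon (ENSMUSG00000046718, chromosome 8, 71534255 to 71537456). It was at 101, 122, 127, 100.1, 103 and 123 CPM with PTP-r and 82.6, 89.01, 87.1, 93.8, 87.2 and 85.1 CPM with vehicle, so that the groups were apart (log2 0.37 ± 0.069, adjusted p = 0.0224). It was the only one of 30 interferon-response genes tested that passed, and its call was lost when any of 7 single libraries was left out. All 30 had a positive log2 value, and 22 had an unadjusted p under 0.05 (73.3%, against 4.6% of all genes on the higher side). The median was 0.36, or 0.40 without the 3 libraries, where none passed and 21 had an unadjusted p under 0.05. Mx1 is an antiviral GTPase chosen after its values were seen. It was at 4.08, 5.78, 6.89, 3.73, 4.82 and 5.36 CPM with PTP-r and 3.76, 3.08, 2.09, 2.71, 3.61 and 2.60 CPM with vehicle (log2 0.78 ± 0.17, adjusted p = 0.0527). None of 16 interferon-induced GTPases of the Gbp and Irg families and none of 18 antigen presentation genes passed. At an unadjusted p under 0.05 stood 4 of the GTPases (25%) and 6 of the antigen presentation genes (33.3%), all higher, against 4.6% of all genes. The medians were 0.23 and 0.07.

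Genes of activated macrophages and granulocytes made up 4 of the 12. Mmp12 is the macrophage elastase (ENSMUSG00000049723, chromosome 9, 7344381 to 7369499). It was at 4.92, 0.708, 3.38, 1.74, 2.59 and 1.68 CPM with PTP-r and 0.297, 0.176, 0.909, 0.348, 0.490 and 0.585 CPM with vehicle (log2 2.41 ± 0.42, adjusted p = 0.0127). Gpnmb is a glycoprotein of lipid-laden macrophages (ENSMUSG00000029816, chromosome 6, 49036546 to 49070929). It was at 5.97, 0.433, 4.36, 1.20, 2.23 and 1.04 CPM with PTP-r and 0.198, 0.206, 0.505, 0.116, 0.516 and 0.484 CPM with vehicle (log2 2.87 ± 0.55, adjusted p = 0.0253). In both genes libraries 1 and 5 were highest and library 4 lay inside the vehicle range. Chil3 is a chitinase-like protein that monocytes and alternatively activated macrophages secrete (ENSMUSG00000040809, chromosome 3, 106147554 to 106167564). It was at 0.841, 0.433, 0.756, 0.379, 0.377 and 0.434 CPM with PTP-r and 0.0659, 0, 0.101, 0.0464, 0.0516 and 0.127 CPM with vehicle. Its fold change of 7.65 (log2 2.93 ± 0.52, adjusted p = 0.0127) was the largest of the 26 and rested on 11 to 25 reads against 0 to 5 reads per library. Like Cxcl2, Chil3 entered the test only through PTP-r libraries, where it was high. S100a9 is a calprotectin subunit of neutrophils and monocytes (ENSMUSG00000056071, chromosome 3, 90692632 to 90695721). It was at 1.22, 0.826, 1.25, 1.26, 1.23 and 0.989 CPM with PTP-r and 0.627, 0.617, 0.640, 0.580, 0.490 and 0.687 CPM with vehicle (log2 0.89 ± 0.18, adjusted p = 0.0362), with the groups apart, and its call was lost when any of 10 single libraries was left out. Without the 3 libraries the 4 genes kept log2 values of 2.26, 2.72, 3.12 and 0.96 for Mmp12, Gpnmb, Chil3 and S100a9, and none passed (adjusted p = 0.0751, 0.0879, 0.0584 and 0.106).

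The marker lists of these cells held few passing genes. Among 18 genes of lipid-associated macrophages, 2 rose (Mmp12 and Gpnmb). An unadjusted p under 0.05 was found in 9, all higher (50%, against 4.6% of all genes), and the median was 0.38. Trem2 is the receptor that defines these cells. It was at 3.15, 2.05, 2.76, 1.58, 2.79 and 1.68 CPM with PTP-r and 1.65, 0.998, 1.31, 0.928, 1.21 and 1.93 CPM with vehicle and did not pass (log2 0.79 ± 0.22, adjusted p = 0.16). Spp1, another of their markers, ranged from 28.6 to 34.01 CPM with PTP-r and from 28.3 to 37.9 CPM with vehicle. Among 26 general markers of macrophages and monocytes, 1 rose (Chil3) and 5 had an unadjusted p under 0.05, all higher (19.2%, against 4.6% of all genes). Their median was 0.21, and their summed level was 247 to 363 CPM under PTP-r against 168 to 284 CPM under vehicle. Kupffer cells are the liver's resident macrophages. None of their 14 tested markers had an unadjusted p under 0.05, where 8.67% of all genes had, and the median was 0.01. Their sums were 534 to 840 CPM under PTP-r against 620.5 to 774 CPM under vehicle.

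Neutrophil markers were scarce. Of 20 listed, 11 stayed under 1 CPM in all 12 libraries and 9 passed the expression filter, of which 1 rose (S100a9). An unadjusted p under 0.05 was found in 5 on the higher side (55.6%, against 4.6% of all genes) and 1 on the lower. Their median was 0.79, 0.57 without the 3 libraries and 0.27 when 1 CPM in 5 libraries was required. Ly6g, the marker that defines neutrophils in mice, was at 0 to 0.075 CPM under PTP-r against 0 to 0.046 CPM under vehicle, and Stfa2 was listed at 0 in all 12. Most of the list's summed level, 243 to 364 CPM under PTP-r against 218 to 275 CPM under vehicle, came from Wfdc21 and Lcn2. S100a8 is the partner of S100a9, chosen after its values were seen. It ranged from 0.474 to 1.08 CPM with PTP-r and from 0.135 to 0.433 CPM with vehicle (log2 1.12 ± 0.29, adjusted p = 0.125). The part of neutrophil numbers in the S100a9 result was not tested.

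The remaining higher genes stand apart from the inflammatory lists. Gfra1 is the surface receptor for glial cell line-derived neurotrophic factor (ENSMUSG00000025089, chromosome 19, 58235604 to 58455909). It was at 162, 181, 155, 150.0, 188 and 173 CPM with PTP-r and 141, 132, 131, 145, 121 and 125 CPM with vehicle; the change was the smallest of the 26 (log2 0.35 ± 0.063, adjusted p = 0.0171), with every PTP-r library above every vehicle library. Ckap2l is a protein of the mitotic spindle (ENSMUSG00000048327, chromosome 2, 129268210 to 129297212). It was at 0.757, 1.10, 0.978, 1.14, 0.83 and 0.711 CPM with PTP-r and 0.429, 0.117, 0.168, 0.371, 0.387 and 0.433 CPM with vehicle (log2 1.49 ± 0.30, adjusted p = 0.0362), and its call was lost when any of 9 single libraries was left out. Ckap2l is not on the cell cycle list. Of the 30 cell cycle genes on that list none passed, and 10 had an unadjusted p under 0.05, all higher (33.3%, against 4.6% of all genes). A positive log2 value was found in 29, and the median was 0.44, or 0.45 without the 3 libraries. Cdk1 is the kinase that drives entry into mitosis. It was at 0.757, 0.866, 1.60, 2.05, 1.21 and 1.42 CPM with PTP-r and 0.890, 0.529, 0.471, 0.719, 0.671 and 0.636 CPM with vehicle (log2 1.02 ± 0.25, adjusted p = 0.0893).

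**Figure D2:**
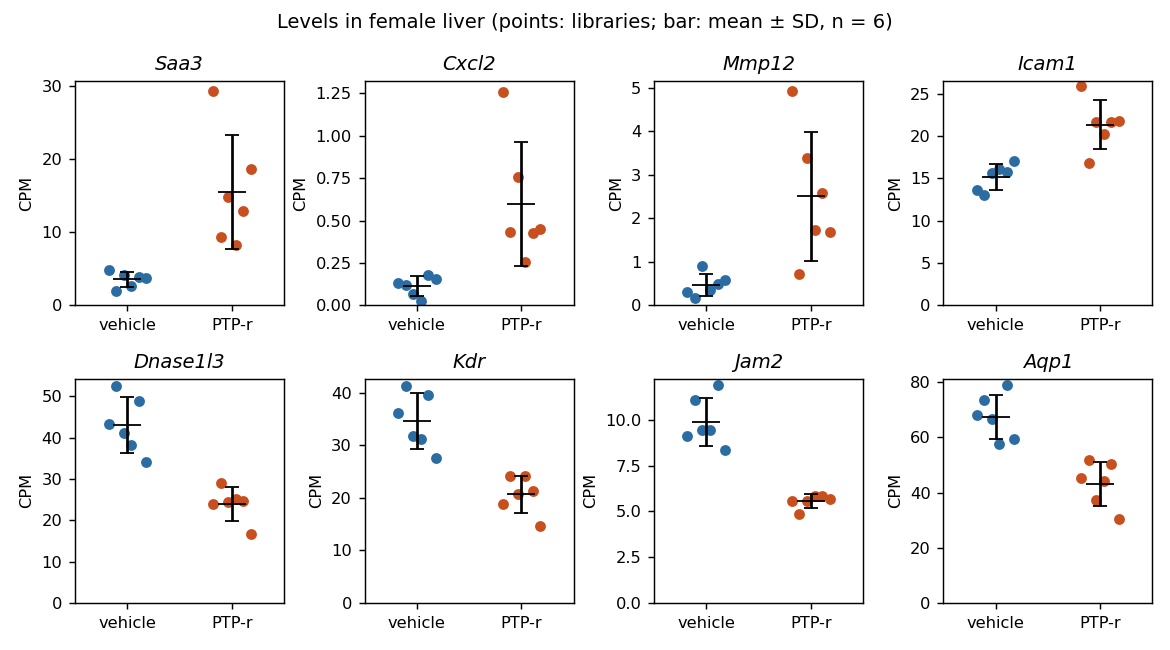
CPM of 4 genes that rose and 4 that fell, one panel per gene, for vehicle (blue) and PTP-r (orange) female liver libraries; each point is a library and the bar gives the mean ± SD (n = 6 each). Saa3 ranges from 8.19 to 29.3 CPM with PTP-r and from 1.88 to 4.78 CPM with vehicle, and Dnase1l3, Kdr, Jam2 and Aqp1 lie below every vehicle library in all 6 PTP-r libraries.

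The endothelial genes that fell lay below the vehicle mean in every PTP-r library, by a smaller amount than most of the higher genes rose. Dnase1l3 is a secreted nuclease that digests DNA of dead cells and is abundant in sinusoidal endothelium (ENSMUSG00000025279, chromosome 14, 7964533 to 7994573). It was at 23.9, 29.1, 24.4, 25.2, 24.7 and 16.6 CPM with PTP-r and 43.3, 52.4, 41.1, 38.2, 48.95 and 34.1 CPM with vehicle, 1.80-fold lower (log2 -0.85 ± 0.12, adjusted p = 0.00128). Kdr is the receptor through which endothelium senses vascular growth factor A (ENSMUSG00000062960, chromosome 5, 75932827 to 75978458). It was at 18.9, 24.1, 20.8, 24.2, 21.3 and 14.6 CPM with PTP-r and 36.04, 41.3, 31.8, 31.1, 39.5 and 27.5 CPM with vehicle, 1.68-fold lower (log2 -0.75 ± 0.13, adjusted p = 0.0112). Flt4 is the receptor for the related factor C that sinusoids share with lymphatic vessels (ENSMUSG00000020357, chromosome 11, 49609263 to 49652739). It was at 11.7, 14.95, 12.5, 17.2, 13.2 and 11.05 CPM with PTP-r and 18.7, 24.6, 18.6, 22.6, 24.6 and 18.9 CPM with vehicle (log2 -0.67 ± 0.12, adjusted p = 0.0127). Ntn4 is a netrin deposited in basement membranes (ENSMUSG00000020019, chromosome 10, 93640681 to 93747207). It was at 3.83, 4.17, 5.07, 5.97, 4.80 and 3.75 CPM with PTP-r and 6.63, 9.78, 8.72, 7.03, 7.66 and 6.64 CPM with vehicle (log2 -0.75 ± 0.11, adjusted p = 0.00427). In none of these 4 did the groups overlap. PTP-r library 11, which carried muscle RNA, was the lowest for all 4, and without the 3 libraries Dnase1l3, Kdr and Ntn4 passed at -0.79, -0.67 and -0.67, while Flt4 did not (-0.59, adjusted p = 0.105).

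These 4 were the members of the sinusoidal list that passed, out of 21 tested, where 0.0881% of all genes tested passed as lower. On that list 16 had an unadjusted p under 0.05, all lower (76.2%, against 4.07% of all genes). A negative log2 value was found in 20. In 5 the PTP-r libraries lay below every vehicle library, where 0.302% of all genes tested did so. The median was -0.49 against -0.0026 for all genes. Without the 3 libraries 3 passed, 15 had an unadjusted p under 0.05 and the median was -0.41. Each of the 21 markers reached 1 CPM in at least 1 library. Stab2 is the hyaluronan scavenger receptor that defines sinusoidal endothelium. It was at 46.4, 65.6, 53.6, 56.9, 61.9 and 42.02 CPM with PTP-r and 65.6, 77.2, 61.9, 66.2, 70.5 and 53.2 CPM with vehicle (log2 -0.27 ± 0.10, adjusted p = 0.354). Stab1, its relative, chosen after its values were seen, ranged from 28.9 to 42.4 CPM with PTP-r and from 44.99 to 52.9 CPM with vehicle (log2 -0.38 ± 0.083, adjusted p = 0.0527). Gpr182, a chemokine scavenger of sinusoids chosen in the same way, had a log2 value of -0.60 ± 0.13 (adjusted p = 0.0519). Fitted values on the list ran from -0.85 for Dnase1l3 through -0.27 for Stab2 to 0.12 at the other end of the list.

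Several of the genes that fell are shared by endothelium of many organs. Jam2 is a junctional adhesion molecule (ENSMUSG00000053062, chromosome 16, 84774123 to 84825928). It was at 5.55, 4.88, 5.56, 5.85, 5.85 and 5.69 CPM with PTP-r and 9.13, 11.1, 9.46, 9.42, 11.9 and 8.37 CPM with vehicle; its PTP-r libraries lay closer together than those of any other lower gene named here, and none came near the vehicle range (log2 -0.83 ± 0.11, adjusted p = 0.00128). Aqp1 is a water channel of vessels and bile ducts (ENSMUSG00000004655, chromosome 6, 55336432 to 55348555). It was at 45.2, 51.7, 37.3, 44.2, 50.2 and 30.5 CPM with PTP-r and 68.1, 73.7, 66.8, 57.8, 78.9 and 59.6 CPM with vehicle (log2 -0.64 ± 0.11, adjusted p = 0.0112), again with no overlap. Ptprb is the endothelial phosphatase that restrains the angiopoietin receptor and junctional cadherin (ENSMUSG00000020154, chromosome 10, 116275523 to 116389535). It was at 31.5, 38.99, 29.4, 40.7, 37.8 and 22.6 CPM with PTP-r and 59.7, 69.2, 53.1, 46.3, 66 and 35.5 CPM with vehicle (log2 -0.72 ± 0.14, adjusted p = 0.0348); vehicle library 12 lay within the PTP-r range. Mmrn2, an endothelial matrix protein (ENSMUSG00000041445, chromosome 14, 34375465 to 34404287), and Tspan7, a tetraspanin (ENSMUSG00000058254, chromosome X, 10485158 to 10596605), completed the general endothelial genes that passed, at log2 -0.59 ± 0.12 (adjusted p = 0.0348) and -0.61 ± 0.12 (adjusted p = 0.04).

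On the general endothelial list 5 of 30 fell, where 0.0881% of all genes tested did so, and none rose. There 17 had an unadjusted p under 0.05, all lower (56.7%), 27 had a negative log2 value and the median was -0.32. Without the 3 libraries 4 passed, 15 had an unadjusted p under 0.05 and the median was -0.29. The summed level of the general list was 377 to 509 CPM under PTP-r against 527 to 649.8 CPM under vehicle, so the sums did not overlap. Those of the sinusoidal list did, at 765 to 942 CPM and 865 to 1181 CPM. The general sums include the 5 genes called on the same values. Of these, Aqp1 was at 30.5 to 51.7 CPM under PTP-r and 57.8 to 78.9 CPM under vehicle. A large part of the sinusoidal sums came from Ctsl alone, at 441 to 489 CPM under PTP-r and 417 to 527 CPM under vehicle. Pecam1 is the adhesion molecule used to mark endothelium in tissue. It was at 11.9, 10.9, 11.2, 10.3, 9.52 and 7.98 CPM with PTP-r and 14.6, 17.1, 13.6, 11.99, 16.4 and 12.5 CPM with vehicle; the groups did not overlap, and the gene missed the threshold (log2 -0.49 ± 0.11, adjusted p = 0.0527).

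The other lower genes are on no endothelial list but for the most part known from vessels. Cd300lg is an endothelial ligand for the selectin of lymphocytes (ENSMUSG00000017309, chromosome 11, 102041509 to 102055620). It was at 6.01, 9.52, 7.92, 9.10, 8.34 and 6.47 CPM with PTP-r and 12.9, 15.5, 11.8, 12.3, 14.5 and 9.87 CPM with vehicle (log2 -0.70 ± 0.13, adjusted p = 0.0171). Plxnd1 is a semaphorin receptor that guides vessels (ENSMUSG00000030123, chromosome 6, 115954811 to 115995005). It was at 25.1, 22.3, 26.9, 26.6, 24.8 and 19.5 CPM with PTP-r and 33.1, 34.8, 31.4, 35.5, 35.8 and 29.5 CPM with vehicle, with no overlap and the smallest change of the lower genes (log2 -0.47 ± 0.082, adjusted p = 0.0127). F8 is clotting factor VIII (ENSMUSG00000031196, chromosome X, 75172715 to 75382615). It ranged from 5.20 to 8.58 CPM with PTP-r and from 7.81 to 14.2 CPM with vehicle (log2 -0.67 ± 0.14, adjusted p = 0.0425), and it was the only one of 33 complement and coagulation genes that passed. Col13a1 is a membrane-bound collagen of cell contacts (ENSMUSG00000058806, chromosome 10, 61838236 to 61979108). It ranged from 1.89 to 3.59 CPM with PTP-r and from 3.64 to 6.73 CPM with vehicle (log2 -0.84 ± 0.18, adjusted p = 0.0489). Gm44220 is an annotated transcript of unknown product (ENSMUSG00000107655, chromosome 6, 93241720 to 93244206). It ranged from 0.267 to 0.572 CPM with PTP-r and from 0.763 to 1.21 CPM with vehicle, from 6 to 33 and 27 to 47 reads (log2 -1.15 ± 0.18, adjusted p = 0.0064).

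No gene passed on the lists of endothelial signals and vascular growth factor pathways. With 0.164% of all genes passing, nothing is read from that. Bmp6 is made by sinusoidal cells and drives the iron hormone hepcidin in hepatocytes. It was at 2.65, 2.44, 2.54, 3.29, 2.26 and 1.80 CPM with PTP-r and 3.53, 5.70, 4.34, 3.50, 5.13 and 2.60 CPM with vehicle (log2 -0.74 ± 0.17, adjusted p = 0.0679). Among 27 genes of the growth factor, angiopoietin and bone morphogenetic protein pathways none passed. There 5 had an unadjusted p under 0.05, all lower (18.5%, against 4.07% of all genes), and the median was -0.09. That list does not hold the receptors Kdr and Flt4 or the phosphatase Ptprb, which passed and were counted on the endothelial lists. Of 24 endothelial signals and their zonation targets in hepatocytes none passed. An unadjusted p under 0.05 was found in 3, all lower (12.5%, against 4.07% of all genes), and the median was -0.10. Gpihbp1, which holds lipoprotein lipase on capillary walls, had a log2 value of -0.40 ± 0.11 (adjusted p = 0.141).

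**Figure D3:**
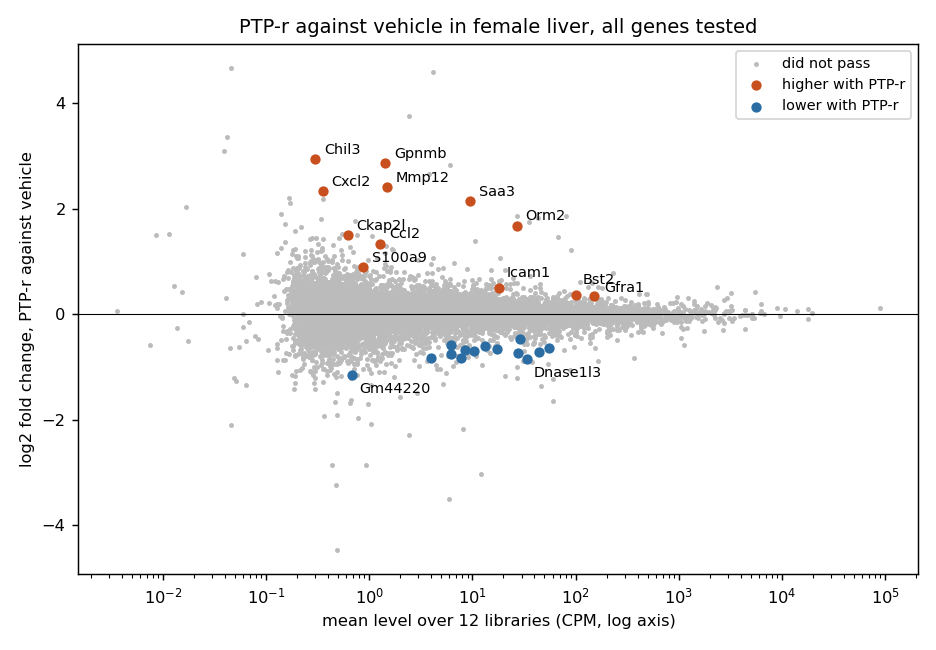
Log2 fold change of PTP-r against vehicle (vertical) over the mean level in CPM (horizontal, log axis) for the 15892 genes tested in female liver; grey genes did not pass, 12 orange genes were higher and 14 blue genes were lower. Among the higher genes Gfra1, Bst2, Orm2 and Icam1 lie above 10 CPM, and the 8 others lie below it.

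The size of the response varied between PTP-r libraries. Measured as the median over the 12 higher genes, the log2 distance from the vehicle mean was 1.99 in PTP-r library 1, 1.65 in library 5, 1.17 in library 11, 1.14 in library 9, 0.96 in library 8 and 0.71 in library 4. Measured over the 14 lower genes it was -0.98 in library 11, -0.85 in library 1, -0.75 in library 5, -0.65 in library 9 and -0.54 in libraries 4 and 8. Among vehicle libraries the same medians ran from -0.31 to 0.21 for the higher genes and from -0.31 to 0.23 for the lower genes, with vehicle library 12 lowest in the latter. These medians describe genes that were chosen for the difference. Leaving out single libraries ended calls without turning a direction. Saa3, Cxcl2, Mmp12, Jam2, Dnase1l3, Ntn4, Aqp1, Kdr and Gm44220 passed whichever of the 12 libraries was left out, and without vehicle library 10 the other 17 did not pass. Without PTP-r library 11, 14 of those 17 did not pass, and leaving out any other single library ended between 1 and 13 calls. All these fits kept the male livers in the estimate of the spread. With the 12 female libraries alone, Ntn4, Aqp1, Kdr, Mmp12 and Gm44220 did not pass, while Saa3, Jam2 and Dnase1l3 did. Cxcl2 did not reach the expression filter of that fit and was not tested in it. Without the 3 libraries with other tissue, Saa3 and 8 lower genes passed (Jam2, Dnase1l3, Ntn4, Gm44220, Aqp1, Kdr, Ptprb and Mmrn2). Without these 3 and vehicle library 10, which leaves 4 libraries a group, 5 genes passed, of which Saa3 (1.74, adjusted p = 0.0171), Dnase1l3 (-0.77, adjusted p = 0.0118), Jam2 (-0.83, adjusted p = 0.0391) and Gm44220 (-1.30, adjusted p = 0.0391) were among the 26.

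No gene passed on the lists of hepatocyte metabolism; with 0.164% of all genes passing, nothing is read from that. Of the 50 lists, 38 held none, among them fatty acid synthesis (24 genes tested, median -0.04), fatty acid oxidation (30 genes, 0.06), lipid droplets and lipases (24 genes, -0.03), cholesterol synthesis and uptake (30 genes, -0.18), apolipoproteins (22 genes, 0.01), bile acids (24 genes, -0.03), glucose and glycogen (27 genes, -0.03), cytochrome P450 (40 genes, -0.08) and conjugating enzymes (41 genes, -0.10). Without the 3 libraries the medians of 4 of these lists changed sign: cholesterol synthesis and uptake to 0.09, fatty acid synthesis to 0.11, lipid droplets to 0.01 and apolipoproteins to -0.0045. At an unadjusted p under 0.05 none of these 9 lists held more than 3 higher or 2 lower genes. Fasn is the fatty acid synthase. It was at 631, 261, 542, 896, 548 and 452 CPM with PTP-r and 457, 584, 526, 395, 595 and 1154 CPM with vehicle (log2 -0.16 ± 0.28, adjusted p = 0.938); the single high value was vehicle library 12. Cyp7a1 is the rate-limiting enzyme of bile acid synthesis. It ranged from 68.8 to 341 CPM with PTP-r and from 123 to 352 CPM with vehicle (log2 -0.05 ± 0.38, adjusted p = 0.993). Pck1, which controls gluconeogenesis, had a log2 value of 0.06 ± 0.23 (adjusted p = 0.973). Cidec is a lipid droplet protein abundant in fatty liver. It ranged from 0.311 to 3.03 CPM with PTP-r and from 0.255 to 1.76 CPM with vehicle (log2 -0.03 ± 0.68, adjusted p = 0.998).

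Some metabolic genes came closer to the threshold. Cyp2c55 is a P450 enzyme of drug and fatty acid metabolism. It was at 0.589, 0.393, 0.801, 0.664, 0.427 and 0.555 CPM with PTP-r and 0.659, 1.09, 1.45, 1.21, 1.60 and 0.993 CPM with vehicle (log2 -1.04 ± 0.22, adjusted p = 0.0519). Mylip is a ubiquitin ligase that degrades the low-density lipoprotein receptor. It ranged from 6.09 to 8.38 CPM with PTP-r and from 7.69 to 13.9 CPM with vehicle (log2 -0.49 ± 0.11, adjusted p = 0.0693). Apoa1 is the main protein of high-density lipoprotein. It was at 6182, 5305, 5432, 6814, 6104 and 7872 CPM with PTP-r and 5987, 4557, 4283, 4204, 3179 and 5903 CPM with vehicle (log2 0.42 ± 0.13, adjusted p = 0.215). The metallothioneins Mt1 and Mt2, which bind zinc and respond to glucocorticoids and cytokines, were split among PTP-r libraries: Mt2 was at 16.9, 124, 86.5, 8.60, 40.3 and 126 CPM with PTP-r and 17.9, 6.61, 14.9, 16.3, 34.9 and 22.8 CPM with vehicle (log2 1.82 ± 0.56, adjusted p = 0.25), above the vehicle range in libraries 4, 5, 9 and 11 and within it in libraries 1 and 8.

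The prohibitin genes had log2 values near 0 with small standard errors. Phb was at 56.6, 55.4, 61.02, 59.4, 55.4 and 57.98 CPM with PTP-r and 52.9, 61.3, 57.7, 61.99, 51.4 and 56.8 CPM with vehicle (log2 0.02 ± 0.052, adjusted p = 0.972). Phb2 was at 161, 165, 157, 163, 161 and 169 CPM with PTP-r and 160.3, 161, 161, 181, 156 and 167 CPM with vehicle (log2 -0.01 ± 0.040, adjusted p = 0.965). Anxa2, an annexin that joins prohibitin on adipose endothelium, and Cd36, a fatty acid transporter, had log2 values of -0.23 ± 0.23 (adjusted p = 0.861) and -0.03 ± 0.32 (adjusted p = 0.995). Of 24 genes for prohibitins and quality control at the inner mitochondrial membrane none had an unadjusted p under 0.05, and their median was -0.03. Of 75 nuclear-encoded respiratory chain genes none passed and 1 had an unadjusted p under 0.05, with a median of -0.03. Mitochondrial DNA encoded 13 further subunits, with a median of -0.10 and none at that level. Of all genes tested, 8.67% were at that level.

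**Figure D4:**
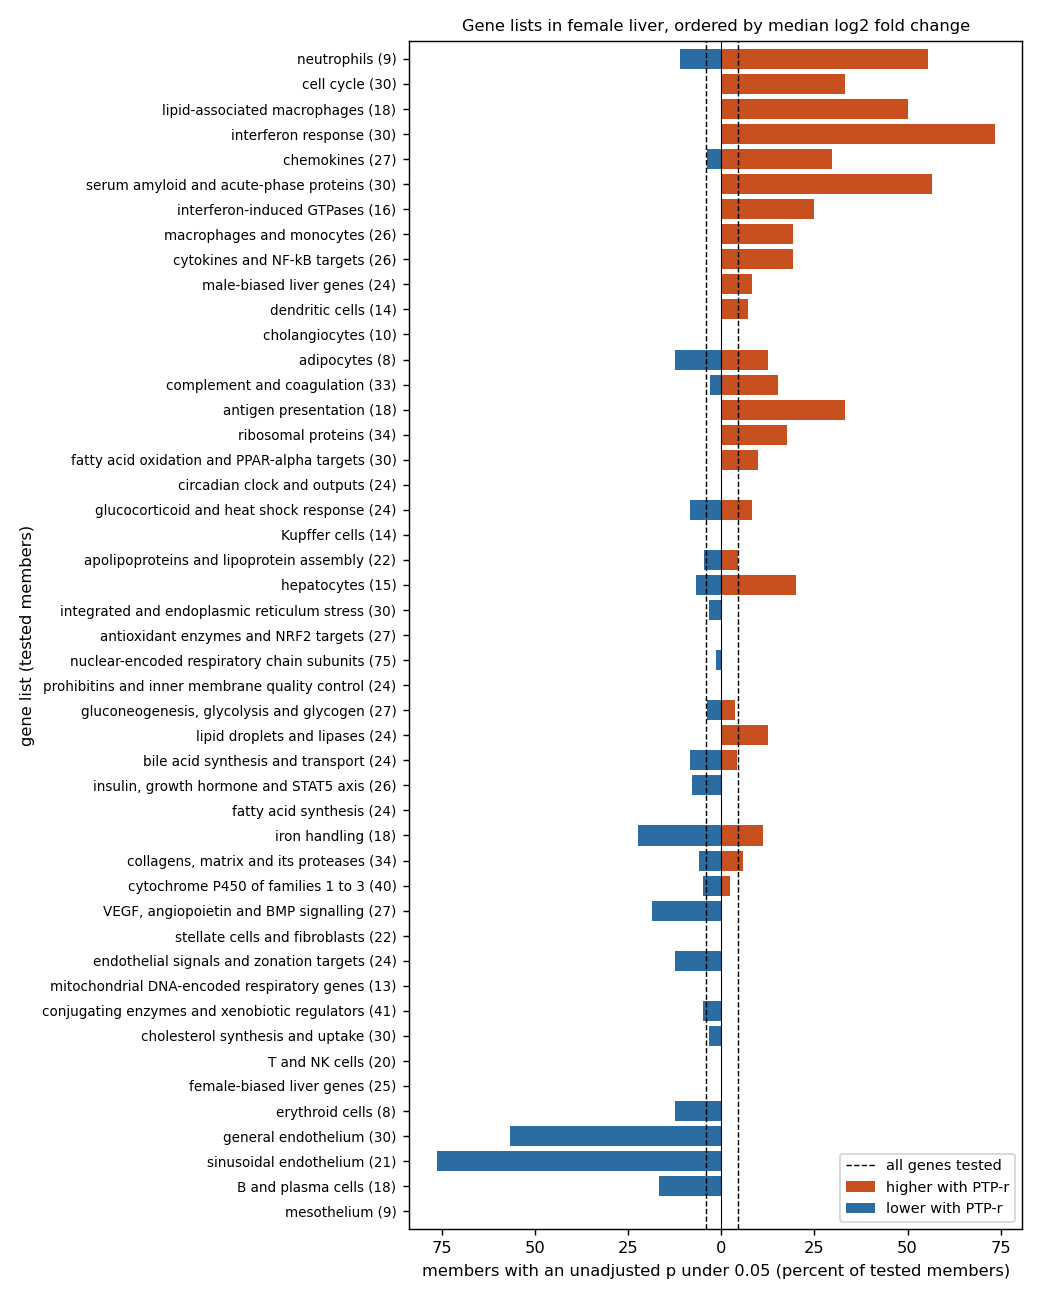
Share of each list's tested genes (number in brackets) with an unadjusted p under 0.05, higher with PTP-r to the right in orange and lower to the left in blue, in percent, for lists with at least 8 tested genes ordered by their median log2 fold change; dashed lines give the shares over all genes tested, 4.6% and 4.07%. Interferon response (73.3% higher) and acute-phase proteins (56.7% higher) extend farthest to the right and the sinusoidal (76.2%) and general (56.7%) endothelial lists farthest to the left.

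Other cell types were measured through their markers. Hepatocyte markers summed to between 157760 and 174040 CPM with PTP-r and between 149410 and 169600 CPM with vehicle, and none of 15 passed. Of 18 B and plasma cell markers none passed, 3 had an unadjusted p under 0.05, all lower (16.7%, against 4.07% of all genes), and the median was -0.51. Vehicle library 10 alone summed to 325 CPM, against 35.8 to 159 CPM in the other vehicle libraries and 54.6 to 109.8 CPM with PTP-r. None of 20 T and NK cell genes, 22 stellate cell and fibroblast genes, 10 bile duct genes or 14 Kupffer cell genes had an unadjusted p under 0.05. Of all genes tested 8.67% had, so such short lists hold few at that level in any case, and nothing is read from the counts. Of 14 dendritic cell genes the one that rose was Bst2, which the interferon list also holds and which made up most of that list's summed level of 123 to 152 CPM under PTP-r against 104 to 116 CPM under vehicle.

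Compared with the males, the female response had the same direction in all 26 genes. The sign of the log2 fold change in male liver matched in 12 of the 12 higher and 14 of the 14 lower genes; 10 and 11 of them passed there, where 5.23% of all genes passed as higher and 2.45% as lower. The median size of the change was 2.27 in males and 1.58 in females for the higher genes, and 0.65 and 0.71 for the lower. Saa3 had a log2 value of 3.59 in males and 2.14 in females, Kdr -0.69 and -0.75, and Dnase1l3 -0.80 and -0.85. Ckap2l (0.88, adjusted p = 0.109) and Gfra1 (0.16, adjusted p = 0.169) were higher genes that did not pass in males, and Plxnd1, Mmrn2 and F8 were such lower genes. All 23 livers share 1 estimate of the spread, but the sexes have their own control libraries.

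**Figure D5:**
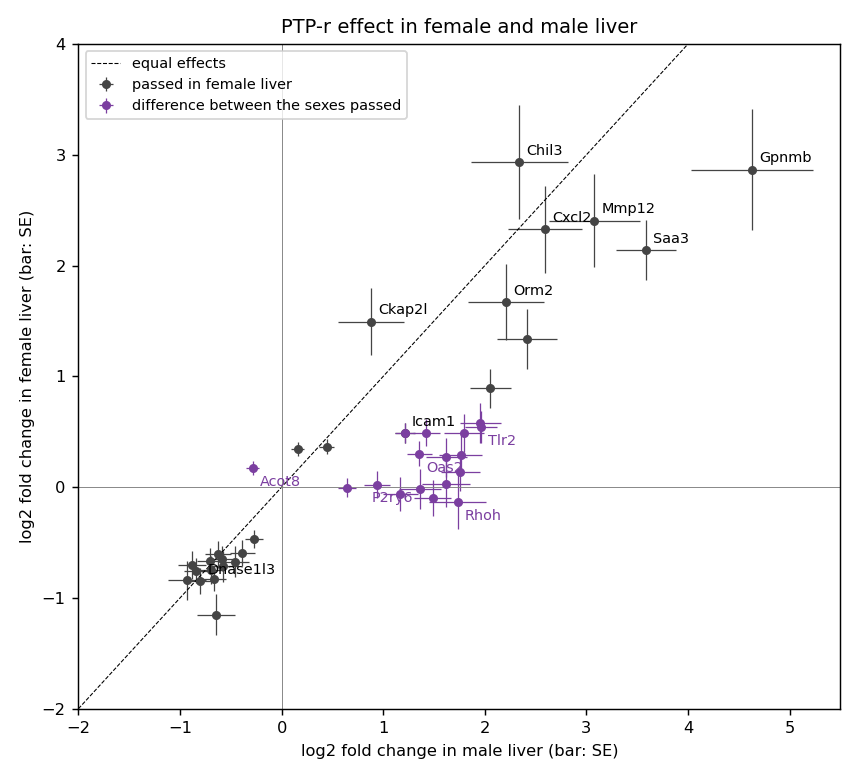
Log2 fold change of PTP-r against vehicle in female liver (vertical) and male liver (horizontal), with the standard error of each as bars, for the 26 genes that passed in females (dark grey) and the 17 genes whose effect differed between the sexes (purple, Icam1 in both sets); the dashed line marks equal effects. All 26 lie on the same side of 0 in both sexes, and 16 of the 17 purple genes lie below the line.

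The difference between the sexes was tested directly in the same fit, as the female log2 effect minus the male one. It passed for 17 of 15892 genes (0.107%), where 1588 had an unadjusted p under 0.05 (9.99%). In 16 of the 17 the female effect was the smaller, and among the 26 genes above only Icam1 was one of them (difference -0.72, adjusted p = 0.0435). Tlr2 is a receptor for bacterial lipopeptides. It was at 5.30, 3.90, 4.31, 3.22, 3.41 and 3.57 CPM in PTP-r females and 2.24, 3.05, 1.95, 2.44, 3.51 and 2.95 CPM in vehicle females, and at 5.86 ± 0.247 CPM (SD, n = 6) and 1.51 ± 0.315 CPM (SD, n = 5) in the males; the female effect was 0.54 and the male 1.96 (difference -1.42, adjusted p = 0.00814). Oas2 senses viral double-stranded RNA. It was at 8.58, 12.98, 12.6, 10.3, 11.3 and 11.5 CPM and 10.5, 8.28, 7.44, 10.1, 10.01 and 8.32 CPM in the females (difference -1.05, adjusted p = 0.00814). P2ry6, a nucleotide receptor of phagocytes, had effects of -0.10 and 1.49 (difference -1.59, adjusted p = 0.00814), and the RNA gene F630028O10Rik 0.13 and 1.76 (difference -1.63, adjusted p = 0.00814). These 4 passed whichever of the 12 female libraries was left out, and they were the only genes to pass with no expression filter, with unstranded counts or with the number sets as a term; without the 3 libraries F630028O10Rik did not (adjusted p = 0.0737). Without these 3 and vehicle library 10 the difference passed for Tlr2 alone (-1.37, adjusted p = 0.0273).

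The other 12 genes with a smaller female effect were Gpr65, Lmo2, Ifi213, Oasl2, Irf8, Clec7a, Ms4a6c, Rhoh, Ikzf1, Plek and Itga4 besides Icam1, most of them known from leukocytes. In these genes the sexes differed more under vehicle than under PTP-r. In all 16 genes the vehicle mean was higher in females than in males, by a median of 1.34 on the log2 scale, and in 15 of them the vehicle libraries of the sexes did not overlap. Under PTP-r the median size of the difference between the sexes was 0.14, with the female mean higher in 10 of 16 and with the ranges overlapping in 15 of 16. The exception in both counts was Tlr2. The genes were chosen for the difference, so these counts describe them, and the sexes under vehicle were not tested against each other. Acot8, a peroxisomal thioesterase, was the gene with the larger female effect (0.17 against -0.28 in males, difference 0.45, adjusted p = 0.0435). For the endothelial lists the female minus male difference passed for none of 21 sinusoidal and none of 30 general genes. With 0.107% of all genes passing, nothing is read from that. The medians of the difference on these lists were -0.05 and -0.05.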

How the data were processed

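The deposited files hold counts, whole reads per gene in 1 file per library, which the authors made with STAR 2.4.0i and HTSeq on build mm10 (the same build as GRCm38), per the submitters' processing notes. The sources used here do not give filters or the annotation release. Each file has 1 unstranded and 2 stranded columns, and the fourth column, which holds the sense reads, was used. Totals that name no gene, multimapping reads included, were 21.0% to 28.9% of a liver library and stayed out. Of 55487 gene IDs, 55141 matched GENCODE M21, which gave names and coordinates. Sequences are RefSeq's.

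Groups follow the labels. All 23 liver libraries were fitted in 4 groups (R 4.3.3, edgeR 4.0.16, 2-sided quasi-likelihood F test, trimmed-mean scaling, filter at a minimum count of 10 and a total of 15), with Benjamini-Hochberg adjustment. The fit was also run on counts simulated from the kind of model it assumes, with changes placed only in genes above 1 CPM. It recovered 79.1% of the 1.5-fold changes, and 8 of its 193 calls were false. The real comparison gave 26 calls, and with fewer calls the Benjamini-Hochberg adjustment asks for smaller p-values. The recovery is therefore not an estimate of the share of changes found in these data. This does not speak for scarcer genes or for traces of other tissue. Replicates were checked for duplicates: over 30 pairs, chi-square divided by its degrees of freedom was 16.9 to 70.4, so none agreed within sampling noise. Depth was 20266425 to 57518893 reads over the 23 livers, and fold changes of genes with few reads are the least precise.

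Genes were named if they passed, if the sex difference passed, or if they led a list or were key genes of it; genes chosen after their values were seen are marked so. The comparison and the 50 lists (1153 genes) were chosen with earlier results of these data known, so no list is independent support. Alternatives were DESeq2 1.42.0, its size factors, voom with quality weights (limma 3.58.1), other filters, unstranded counts, added terms, fewer libraries and each female library left out.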

Additional observations from a re-analysis of the deposited data

Results flagged for a closer look

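Libraries were compared with the others of their group by Dixon's test in 144 groups of values, of which 14 held a library far from the rest; chance gives about 1 in 20. Among genes, Jam2 was lowest in PTP-r library 4 at 4.88 CPM (5.55 to 5.85 CPM in the other 5). Ccl2 was highest in PTP-r library 1 at 3.49 CPM (1.39 to 1.71 CPM), and Stab1 was lowest in PTP-r library 11 at 28.9 CPM (37.4 to 42.4 CPM). S100a8 was lowest in vehicle library 6 at 0.135 CPM (0.348 to 0.433 CPM), and Sele was highest in vehicle library 10 at 0.155 CPM (0.0232 to 0.0659 CPM). Fasn was highest in vehicle library 12 at 1154 CPM (395 to 595 CPM). Atf3, a stress-induced transcription factor, stood at 118 CPM in vehicle library 2 and at 1.30 to 5.14 CPM in the other vehicle libraries, beside a fitted log2 value of -3.03 (edgeR adjusted p = 0.184); the part of that library in it was not tested. P2ry6 was lowest in PTP-r library 4 at 1.26 CPM (1.60 to 1.68 CPM), and F630028O10Rik was highest in PTP-r library 5 at 1.82 CPM (0.944 to 1.23 CPM).

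Among marker sums, skeletal muscle stood at 394 CPM (PTP-r library 11) and 572 CPM (vehicle library 12), and exocrine pancreas at 493 CPM in PTP-r library 1. The macrophage and monocyte sum was 363 CPM in PTP-r library 5 (247 to 273 CPM in the other 5). The 20 highest genes took 26.5% of the counts in vehicle library 2 and 25.1% to 25.5% in the other vehicle libraries.

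The other results stand here because the female effect minus the male effect passed edgeR's test of that difference. On the log2 scale it was -1.42 for Tlr2, -1.59 for P2ry6, -1.05 for Oas2 and -1.63 for F630028O10Rik. It was -0.72 for Icam1, -1.23 for Gpr65, -0.65 for Lmo2, -1.47 for Ifi213, -0.93 for Oasl2 and -0.92 for Irf8. It was -1.38 for Clec7a, -1.35 for Ms4a6c, -1.87 for Rhoh, -1.38 for Ikzf1, -1.31 for Plek and -1.59 for Itga4. For Acot8 it was 0.45, the one positive value.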

How the results depend on the processing

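The count of 26 genes in female liver was 141 with DESeq2, 41 with DESeq2's size factors in edgeR, 14 with the label numbers as a replicate block, 5 with the 12 female libraries alone, 12 without the 3 libraries with muscle or pancreas RNA and 5 without these and vehicle library 10. Leaving out single libraries gave 10 (without vehicle library 10) to 52 (without vehicle library 12). Voom with quality weights also gave 26, of which 6 were higher and 20 lower, where edgeR gave 12 and 14. The count of 17 genes for the sex difference was 215 with DESeq2, 86 with the replicate block, 6 without the 3 libraries, 1 without the 4, 4 with no expression filter, 4 with unstranded counts, 4 with the title numbers 1 to 6 against 7 to 12 as a term, and 4 to 79 when single libraries were left out. The labels do not say whether the label numbers pair the libraries, and 4 same-numbered pairs are too few to decide it. In these pairs the deviations from group means correlated at -0.223, -0.0984, 0.0145 and -0.0143. Medians were recomputed under all alternatives for 9 lists that hold many of the changes; of these 207 medians 199 stayed within the spread between libraries, and none changed sign. The chemokine median was 0.038 with 1 CPM in 5 libraries required and 0.035 in the 12 female libraries alone, and the neutrophil median was 0.27 with 1 CPM required, 0.57 without the 3 libraries, 0.54 without the 4 and 0.59 to 0.86 when single libraries were left out. The 26 genes kept their direction in these fits, but 12 of the 50 list medians changed sign without the 3 libraries, among them cholesterol synthesis (-0.18 to 0.09), cholangiocytes (0.08 to -0.17), adipocytes (0.08 to -0.13) and fatty acid synthesis (-0.04 to 0.11). The causes were not tested. Depth limits the genes with few reads, such as Cxcl2 and Chil3.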

Other observations

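The libraries numbered 1 to 6 and 7 to 12, each with 3 PTP-r and 3 vehicle libraries, differed in genes of the circadian clock. Of 24 clock genes tested, 14 had an unadjusted p under 0.05 between the sets, where 11.2% of all genes had (1779 of 15892). With edgeR 0 genes passed between the sets after adjustment (smallest adjusted p = 0.0999). Npas2, itself a clock activator, had a median of 3.17 CPM in libraries 1 to 6 and 0.57 CPM in libraries 7 to 12, and Arntl, the core activator, 11.6 and 3.45 CPM. Ciart, a clock repressor, had 1.44 and 5.36 CPM. The labels do not say what the numbers stand for. Between treatments none of the 24 clock genes had an unadjusted p under 0.05, where 8.67% of all genes had.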
